A study of Mus musculus with 6 samples.

Results

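The comparison described here is that of the lung arrays labelled FceRla KO: 1 array from mice given histamine-releasing factor (HRF) through the nose and 1 array from mice given PBS. These are 2 of the 6 arrays of the series. The other arrays hold the same pair of challenges in mice labelled FcRg KO and in wild type (WT) mice, all of the C57BL/6 strain, with 1 array per group. The genotype given in the labels is FceRIa-/-, and the protein in the labels of the HRF arrays is mouse HRF written mHRF-His. RNA from whole lung was hybridised, as a single Cy3-labelled sample, to each Agilent array. Whether 1 mouse or a pool went onto an array, the dose, the time after challenge and the age are not stated in the labels. For each of 19752 named genes, the HRF level minus the PBS level was taken on the log2 scale, after each array had been scaled to its own 75th percentile. A level of 0 is thus the 75th percentile of an array. A gene was compared where its probe lay well above background on either array, which held for 16315 genes. Of these, 13026 (79.8%) were bright, meaning a mean log2 level over the pair of -3 or more, and they are described first.

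HRF, the secreted form of the protein made from Tpt1, is known from allergic late-phase fluids and can bind IgE. FceRIa is the IgE-binding chain of the high-affinity IgE receptor of mast cells and basophils, and FcRg is the signalling chain that this receptor shares with several IgG receptors. In the lung, macrophages and epithelial cells answer many inflammatory agents through the transcription factor NF-kB, which switches on chemokines for neutrophils and monocytes. Secreted IL-6 then acts through STAT3 on acute phase genes.

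Lung identity was checked first. Sftpc, the surfactant protein of alveolar type 2 cells, stood at a log2 level of 8.30 on the HRF array and 8.05 on the PBS array. Scgb1a1, the main secreted protein of club cells, stood at 8.41 and 8.12 on the HRF and PBS arrays. Foxj1, the regulator of motile cilia, stood at 2.64 and 2.32. Both arrays therefore carried alveolar, club and ciliated cell transcripts at high levels. The label of the targeted gene was not borne out by a lower level: Fcer1a stood at -1.16 (HRF) and -0.90 (PBS) on the arrays labelled FceRla KO, above its -4.19 and -4.48 on the WT HRF and PBS arrays. Where this probe lies relative to the deleted part is not known here, so its level neither checks the deletion nor replaces the label. Between 67.5% and 79.6% of the 59305 spots of an array were well above background, and the HRF array labelled FceRla KO had the lowest share. Its 75th percentile of processed signal was 1197, against 1593 on its PBS array, and no spot was saturated. Tpt1, which encodes HRF itself, stood at 8.02 on the HRF array and 7.75 on the PBS array. With 1 array per group, no ratio has a replicate check and none of the ratios carries a p-value.

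Within the pair, the HRF array was at least 2-fold higher for 114 bright genes (0.875% of those compared) and at least 2-fold lower for 16 (0.123%). The asymmetry was larger at larger sizes: past 4-fold the counts were 34 higher and 1 lower, and past 8-fold 11 higher and 0 lower. Over all compared genes the 2-fold counts were 242 higher (1.48%) and 75 lower (0.46%), and the median log2 ratio was -0.01. These shares are the ones to set beside each count of list members on this pair given below. Ratios scattered more among dim genes. Their SD was 1.70 in the dimmest of 9 level classes and 0.22 for genes with a mean level between 3 and 6. In the brightest class, from level 6 upward, the median of 242 genes was 0.20, so a ratio of that size for an abundant transcript equals the middle of its class. Around the 2-fold line the genes formed no gap: the last bright gene inside had a log2 ratio of 1.0, the first outside 0.99, and 30 bright genes lay between 1.9- and 2.1-fold higher. Probes that are spotted 10 times give the precision within an array. Over 276 such bright probes, the SD of the ratio over spots had a median of 0.0888 and a 95th percentile of 0.153, which covers spot noise and leaves out all variation between mice and between hybridisations.

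**Figure D1:**
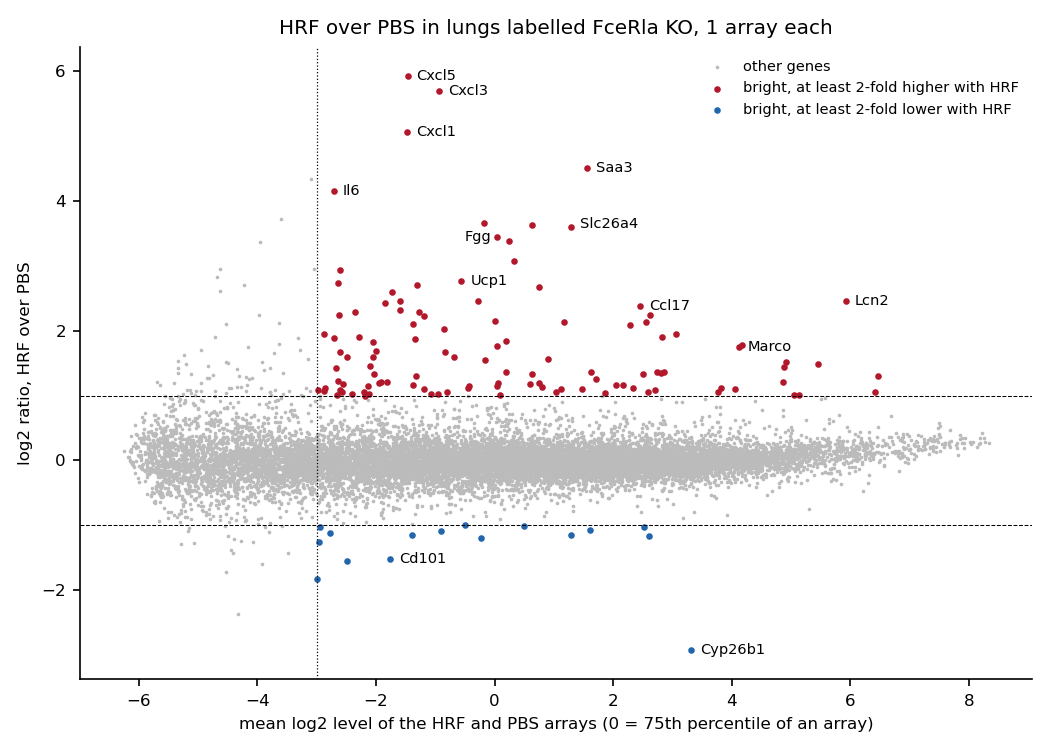
Each point is 1 of the compared genes on the arrays labelled FceRla KO, with the mean log2 level of the HRF and PBS arrays on the x axis and the log2 ratio of HRF over PBS on the y axis; genes whose ratio is only a bound are left out. The 114 bright genes at least 2-fold higher (red) reach a ratio of 5.93 for Cxcl5, and the 16 at least 2-fold lower (blue) reach -2.93 for Cyp26b1; dashed lines mark 2-fold and the dotted line the level of -3.

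The steepest ratios belonged to the chemokines that draw neutrophils through the receptor Cxcr2. Cxcl5, an epithelial chemokine of the lung, stood at a log2 level of 1.5 on the HRF array and -4.43 on the PBS array, a ratio of 61.2-fold. Cxcl3 stood at 1.92 on the HRF array and -3.78 on the PBS array, 52.0-fold apart. Cxcl1 stood at 1.06 on the HRF array and -4.00 on the PBS array, or 33.5-fold. These were the top ranks among all bright genes. Cxcl2, the remaining inducible ligand, was measured on the HRF array at -1.40, while its probe on the PBS array did not reach the detection mark, which gives a ratio of at least 32.2-fold. The ligands that platelets and the resting lung make were close to the PBS array: Ppbp and Pf4, both stored in platelets, had log2 ratios of 0.59 and 0.43, and Cxcl15, made by lung epithelium at rest, 0.13. The receptors had 0.04 (Cxcr1) and -0.39 (Cxcr2). In all, 4 of 9 members of the list of ligands and receptors were at least 2-fold higher and 0 lower, with a median of 0.59, beside a median of -0.01 over all compared genes. These ratios also rest on a low PBS array. Over the 7 ligands, the PBS level here minus WT PBS had a median of -1.82. The HRF level here minus WT HRF had a median of 0.39.

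The genes of Cxcl3, Cxcl1 and Cxcl2 lie in a chemokine cluster on chromosome 5. Their promoters are printed here with those of Cxcl10, Il6 and the NF-kB inhibitor gene Nfkbia. These are textbook NF-kB genes and were at least 2-fold higher, though Nfkbia only just, with a log2 ratio of 1.02. Each run is the 250 bases before the transcription start, 5′ to 3′ on the gene's strand, from RefSeq on GRCm38.p6. Capitals mark matches to the NF-kB consensus, a 10-letter motif searched on both strands, and a run of 11 capitals is a pair of overlapping matches, 1 on each strand.
Cxcl1: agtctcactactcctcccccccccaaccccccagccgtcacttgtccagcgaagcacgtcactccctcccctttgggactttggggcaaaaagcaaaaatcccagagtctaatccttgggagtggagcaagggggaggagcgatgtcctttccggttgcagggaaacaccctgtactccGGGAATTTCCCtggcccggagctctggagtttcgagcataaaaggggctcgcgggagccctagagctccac
Cxcl2: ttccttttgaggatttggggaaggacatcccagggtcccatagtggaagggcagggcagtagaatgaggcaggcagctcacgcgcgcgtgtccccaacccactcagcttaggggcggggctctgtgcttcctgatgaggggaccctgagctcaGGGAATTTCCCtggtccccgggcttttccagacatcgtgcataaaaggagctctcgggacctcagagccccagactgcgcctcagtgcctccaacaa
Cxcl3: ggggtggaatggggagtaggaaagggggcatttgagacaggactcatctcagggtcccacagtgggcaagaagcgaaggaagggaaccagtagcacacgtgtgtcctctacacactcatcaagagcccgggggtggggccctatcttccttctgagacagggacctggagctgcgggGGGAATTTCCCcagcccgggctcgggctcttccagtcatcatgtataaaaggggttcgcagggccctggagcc
Cxcl10: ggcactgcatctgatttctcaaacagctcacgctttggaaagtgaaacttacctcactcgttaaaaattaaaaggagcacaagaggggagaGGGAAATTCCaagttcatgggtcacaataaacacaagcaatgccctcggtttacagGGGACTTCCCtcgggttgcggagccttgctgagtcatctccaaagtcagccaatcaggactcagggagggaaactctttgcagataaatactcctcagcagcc
Il6: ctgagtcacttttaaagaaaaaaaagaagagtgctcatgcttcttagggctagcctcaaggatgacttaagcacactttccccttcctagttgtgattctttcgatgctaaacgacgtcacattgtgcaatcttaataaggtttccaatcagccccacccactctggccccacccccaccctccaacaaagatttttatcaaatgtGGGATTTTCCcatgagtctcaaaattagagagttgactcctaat
Nfkbia: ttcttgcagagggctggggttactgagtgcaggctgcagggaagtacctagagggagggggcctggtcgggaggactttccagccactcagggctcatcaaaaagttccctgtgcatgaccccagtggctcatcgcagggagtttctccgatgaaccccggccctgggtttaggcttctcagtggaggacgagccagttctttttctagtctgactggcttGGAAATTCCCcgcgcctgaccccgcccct
These windows are chr5:90890995-90891244 (Cxcl1), chr5:90903649-90903898 (Cxcl2) and chr5:90785851-90786100 (Cxcl3) on the plus strand, chr5:92348890-92349139 (Cxcl10) on the minus strand, chr5:30012864-30013113 (Il6) on the plus strand and chr12:55492648-55492897 (Nfkbia) on the minus strand. Cxcl1, Cxcl2 and Cxcl3 share the identical run GGGAATTTCCC, which begins 71 bases before the start in Cxcl1, 97 in Cxcl2 and 73 in Cxcl3. The promoters used here held no entry for Cxcl5, the gene with the highest ratio. Those of the ligands Ppbp, Pf4 and Cxcl15, which were under 2-fold, are not printed. Cxcl10 holds 2 matches, GGGAAATTCC and GGGACTTCCC, the first of them 159 bases before the start. Il6 holds GGGATTTTCC from 44 bases before its start, and Nfkbia GGAAATTCCC from 29 bases before. Searched in windows of 250 bases before and 50 after the start, a match was found in 1480 of 32851 RefSeq promoters (4.51%), in 657 of the 10367 bright genes with a promoter in the table (6.34%) and in 11 of the 81 bright genes at least 2-fold higher that have one (13.6%). These were Cxcl3, Cxcl1, Il6, Cxcl10, Ccl9, Retn, Steap4, Tnfaip3, Chil1, Nfkbie and Nfkbia. The 4.51% counts single promoters, while the shares of genes count a gene where any of its promoters matched. The 4.51% is therefore not a like baseline for the shares of genes. A match is a description of the letters and not a measured binding site.

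Chemokines for monocytes followed. Ccl7 stood at 1.65 on the HRF array and -2.01 on the PBS array, a log2 ratio of 3.66. Ccl2, the principal ligand of the monocyte receptor Ccr2, stood at 1.93 and -1.46 on the HRF and PBS arrays, a ratio of 3.39 with an SD over its repeated spots of 0.0979. Ccl12, the mouse ligand closest to Ccl2, stood at 1.09 (HRF) and -1.07 (PBS). All 3 were higher on the HRF array. Ccl3 and Ccl9 were 2.22 and 2.13 higher on the log2 scale, while Ccl4 (0.67), Ccl8 (0.42) and the T cell chemokine Ccl5 (-0.23) stayed under 2-fold. So 5 of 10 ligands were at least 2-fold higher with a median of 1.40. The 4 receptors had a median of 0.27 and none was past 2-fold; Ccr2 itself had a ratio of 0.17.

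Of the chemokines tied to type 2 immunity, all 5 compared ligands were at least 2-fold higher, with a median of 1.70. Ccl17, which draws Ccr4-bearing T cells, stood at 3.65 on the HRF array and 1.27 on the PBS array. Its partner Ccl22 had a ratio of 1.70 at dim levels of -4.10 (HRF) and -5.80 (PBS). The eosinophil chemokines were less far apart: Ccl24 stood at -1.30 on the HRF array and -2.52 on the PBS array (ratio 1.21), and Ccl11 at -0.45 and -1.48 (ratio 1.03). Ccl1 was at least 3.58-fold higher, with its PBS probe not well above background. With normexp background correction followed by quantile normalization, Ccl22, Ccl11 and Ccl1 had log2 ratios of 0.62, 0.90 and 0.64, under 2-fold. The receptors Ccr4, Ccr3 and Ccr8 had ratios of 0.65, 0.53 and 0.02. Of the 7 compared type 2 cytokine and alarmin ligands, 0 were at least 2-fold higher and 1 was lower, with a median of 0.30. Only 2 of these 7 were bright, so their ratios are a weak measure of a shift. In the whole list of 24 compared type 2 cytokines, alarmins, receptors and targets, 0 were at least 2-fold higher and 1 was lower, and the median was 0.09. Il5, the eosinophil growth factor, had a ratio of 0.90 at dim levels (-4.78 with HRF, -5.68 with PBS), Il4 0.32, and the alarmin Il33 0.53. Il13 was measured on the HRF array only, at least 1.23-fold higher. Il9 was lower on the HRF array by at least 2.95-fold, again with 1 array below the detection mark.

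Among interferon-related genes, the chemokines Cxcl10 and Cxcl9 had the high ratios, and no target of interferon gamma was past 2-fold. Cxcl10 stood at 2.44 on the HRF array and -1.19 on the PBS array (ratio 3.63), and Cxcl9 at -1.15 and -4.08 (ratio 2.94). Both draw Cxcr3-bearing T and NK cells. For both, the PBS array labelled FceRla KO was the lowest of the 3 PBS arrays: on those labelled FcRg KO and WT, Cxcl10 stood at 0.39 and 1.74, and Cxcl9 at -1.24 and -0.52. The HRF level of Cxcl10 was 0.69 above WT PBS, under 2-fold, and that of Cxcl9 was below WT PBS. Among 17 targets of interferon gamma such as the GTPases, 15 ratios were above 0 with a median of 0.30, and 0 were at least 2-fold higher or lower. The 26 type I interferon genes had a median of 0.04 and 0 past 2-fold either way. Of the chemokines of lymphoid tissue, the B cell chemokine Cxcl13 stood at 0.16 (HRF) and -1.87 (PBS) and the T zone chemokine Ccl19 at 1.37 and 0.23, and these were the 2 of 10 members at least 2-fold higher.

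**Figure D2:**
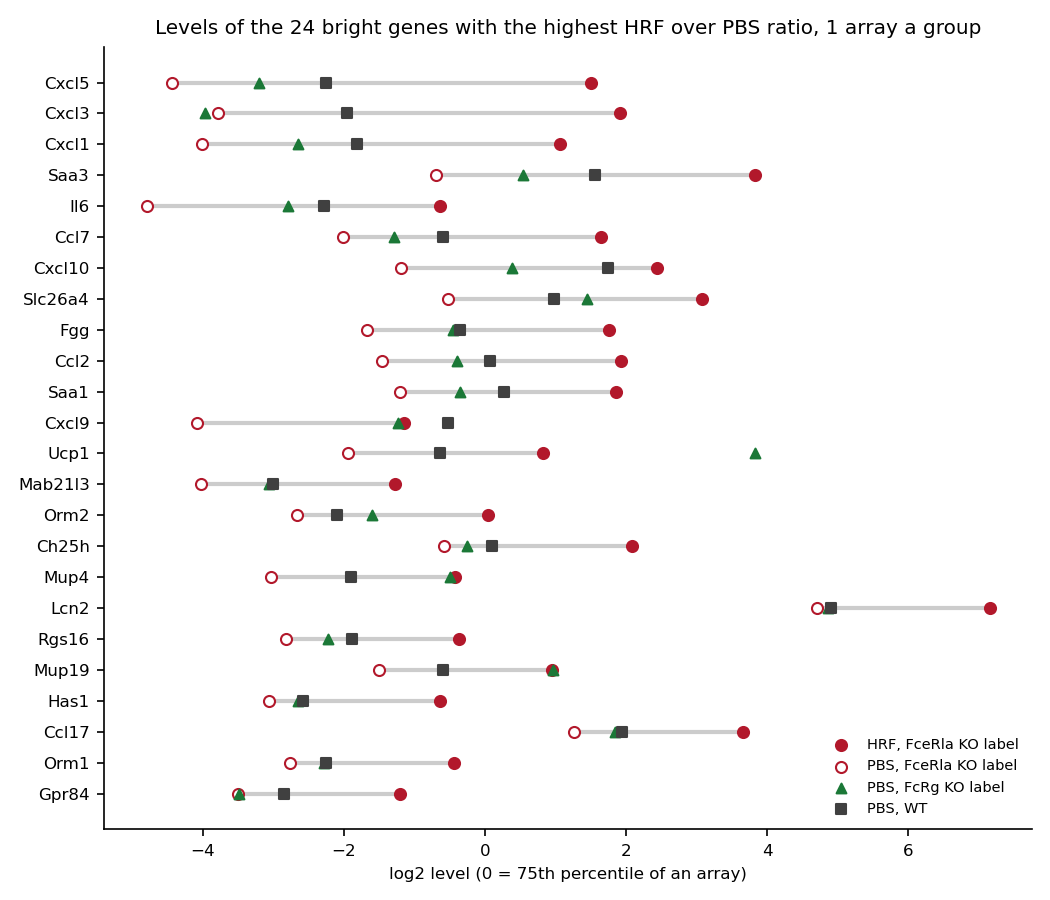
The 24 bright genes with the highest ratios, in order from the top, with the log2 level on the x axis (0 is the 75th percentile of an array). Filled circles are the HRF array and open circles the PBS array labelled FceRla KO, triangles the PBS array labelled FcRg KO and squares the WT PBS array; Cxcl5 runs from 1.5 (HRF) to -4.43 (PBS), and its other PBS levels lie between.

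The plot of levels shows a feature of many members: the PBS array labelled FceRla KO often stood below the other PBS arrays. Of the 114 genes, 102 had a lower PBS level here than on the WT PBS array (47.5% of all bright genes did) and 89 a lower level than on the PBS array labelled FcRg KO. The median differences were -0.47 against WT and -0.51 against the array labelled FcRg KO. The 114 were picked for a high ratio over this same PBS array, which favours genes that stand low on it. The 47.5% of all bright genes is therefore not a like baseline. In the mirror case, 15 of the 16 lower genes stood above WT PBS. On the HRF side, 53 of the 114 were below the WT HRF array, and the median difference from it was 0.08. Set against the highest of the 3 PBS arrays, an alternative chosen after the data were seen, 53 of the 114 were still at least 2-fold higher and 98 were higher at all. The PBS arrays of different genotypes also differ from each other: the PBS array labelled FceRla KO against WT PBS had 27 bright genes (0.206%) at least 2-fold higher and 40 (0.305%) lower, and against the PBS array labelled FcRg KO 73 (0.56%) higher and 77 (0.591%) lower. A genotype difference and a difference between single arrays cannot be told apart here.

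Among cytokines, Il6 led. This driver of acute phase genes stood at -0.63 on the HRF array and -4.79 on the PBS array, a ratio of 17.9-fold. Tnf stood at -1.5 and -3.75 on the HRF and PBS arrays (ratio 2.25). Csf2, which encodes the growth factor GM-CSF, stood at 0.93 and -0.84 (ratio 1.77). These 3 cytokines act early in the inflammatory cascade, and each stood below the 75th percentile of the PBS array. Il1a and Il1b, the ligands of the IL-1 receptor, had ratios of 1.35 and 1.10, and Il1rn, the antagonist of the same receptor, 1.01. Il17a was at least 3.20-fold higher, with PBS below the detection mark. Csf2rb2, a receptor chain for IL-3, had a ratio of 1.04. In the other direction Lif, of the IL-6 family, stood at -4.71 on the HRF array and -3.46 on the PBS array, both dim. Past these members the families were flat: the IL-6 family had 1 of 13 at least 2-fold higher and 1 lower with a median of 0.02, and the TNF family 1 of 20 higher and 1 lower with a median of 0.11.

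Of the NF-kB and toll-like receptor genes, 8 of 41 were at least 2-fold higher and none lower, and 36 of the 41 ratios were above 0, with a median of 0.53. Of all compared genes, 47.2% had a ratio above 0, 1.48% were at least 2-fold higher and 0.46% lower. The feedback inhibitors were 4 of these 8. Nfkbia, which holds NF-kB in the cytoplasm, stood at 5.64 on the HRF array and 4.63 on the PBS array. Its relative Nfkbie stood at 1.34 and 0.16, and the enzyme gene Tnfaip3, which shuts down the pathway upstream, at 2.32 and 0.95. Zc3h12a, whose product degrades cytokine messages, stood at -1.69 (HRF) and -3.28 (PBS). The other members past 2-fold were the endotoxin co-receptor Cd14 (4.04 with HRF, 2.09 with PBS), the C-type lectin receptor Clec4e (ratio 1.85), the itaconate-making enzyme gene Acod1 (1.21) and the soluble pattern receptor Ptx3 (1.07). With normexp and quantile normalization, Nfkbia (0.89) and Ptx3 (0.60) were under 2-fold. Just outside the line lay Tlr2 (0.99), Sod2 (0.96) and Relb (0.90). The endotoxin receptor gene Tlr4 and the DNA receptor gene Tlr9 had 0.19 and 0.11. Nos2, an NF-kB target of activated macrophages, had -0.13.

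The list of SOCS genes and STAT3 targets had 2 of 21 at least 2-fold higher and a median of 0.29. They were Cebpd, a transcription factor of the acute phase (6.20 with HRF, 4.71 with PBS), and Timp1, an inhibitor of matrix proteases (2.33 and 1.07). Socs3, the feedback inhibitor of IL-6 signalling, had 0.63. Immediate early genes, which cells induce within minutes of a stimulus, had 22 of 23 ratios above 0 with a median of 0.55. Only Klf2 (1.02) and Atf3 (1.01) of this list passed 2-fold, and Egr1 and Fos had 0.78 and 0.47.

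Acute phase and antimicrobial proteins formed the list with the most members past the line. Of 29, 13 were at least 2-fold higher and 1 was lower, beside 1.48% and 0.46% of all compared genes. In this list 27 ratios were above 0, with a median of 0.80. Serum amyloid A genes led. Saa3, the form made by macrophages and epithelium outside the liver, stood at 3.82 on the HRF array and -0.69 on the PBS array (ratio 4.52). Saa1 stood at 1.86 and -1.21, and Saa2 at -0.92 and -5.27 at levels that are not bright. Saa1 and Saa2 are near-identical, so their probes may share signal. Lcn2, an iron-trapping protein of epithelium and neutrophils, stood at 7.16 (HRF) and 4.70 (PBS). The metal-binding Mt2 stood at 5.07 and 3.29, and Itih4, a secreted inhibitor, at 5.60 and 4.16. Orm1, Orm2 and Orm3, copies of a plasma acute phase gene that cannot be separated with certainty by probe, had ratios of 2.33, 2.70 and 1.71.

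The fibrinogen chains differed in sign. Fgg, the gamma chain, stood at 1.77 on the HRF array and -1.67 on the PBS array, a ratio of 3.44, against 1.13 on the WT pair. Fga, the alpha chain, had a ratio of 1.04 at dim levels of -4.60 and -5.64. Fgb, the beta chain, was at least 3.51-fold lower on the HRF array, where its probe was not well above background. Haptoglobin (Hp), already at 7.22 on the PBS array, stood at 7.79 on the HRF array. Fgl1, a fibrinogen-related gene outside the list, had a ratio of 1.9. Complement genes had 3 of 24 at least 2-fold higher with a median of 0.07, namely Cfb of the alternative pathway (3.41 with HRF, 2.05 with PBS), Cfd, which the fat list holds too, and C4bp.

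**Figure D3:**
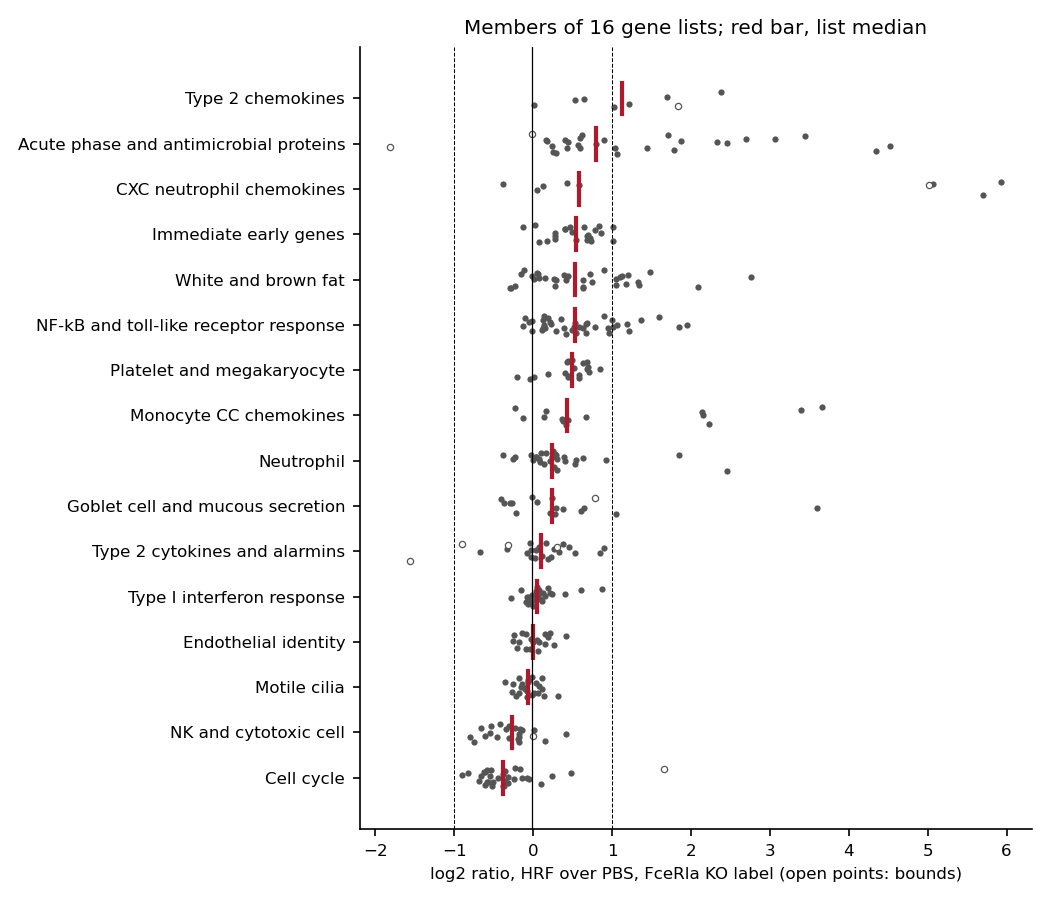
Log2 ratios of HRF over PBS on the arrays labelled FceRla KO for the members of 16 gene lists, 1 point per gene, with open points for ratios that are bounds and a red bar at the list median. Type 2 chemokines have the highest median of these (1.12) and the cell cycle list the lowest (-0.38); dashed lines mark 2-fold.

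Single epithelial genes were high while most of the goblet cell list was under 2-fold, and the vessel list had 9 of 10 ratios above 0. Slc26a4, the anion exchanger pendrin of airway epithelium, stood at 3.08 on the HRF array and -0.52 on the PBS array (ratio 3.60). Itln1, a lectin of goblet cells, stood at 1.57 and 0.52. The mucin gene Muc5ac had -0.30 and the goblet cell gene Clca1 -0.41, and the goblet list as a whole had 2 of 17 at least 2-fold higher with a median of 0.24. Noxo1, a subunit of an epithelial oxidase complex, stood at 2.24 (HRF) and 0.10 (PBS). In the vessel list, 3 of 10 were at least 2-fold higher with a median of 0.49. They were Lrg1 (5.67 and 4.15 on the HRF and PBS arrays), the chemokine-scavenging receptor Ackr1 (-2.06 and -3.15) and the adhesion molecule Selp (-1.67 and -2.72). Genes of endothelial identity had a median of 0.00 with 0 of 20 past 2-fold, and alveolar type 1, club cell and cilia genes had medians of -0.01, 0.13 and -0.07, also with 0 past 2-fold.

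Further high members came from lipid, matrix and signalling genes. Ch25h, an enzyme that makes an immune oxysterol, stood at 2.09 on the HRF array and -0.58 on the PBS array. Has1, a hyaluronan synthase, stood at -0.63 and -3.06, and Rgs16, a brake on chemokine receptor signalling, at -0.37 and -2.82. Gpr84, a fatty acid receptor of activated macrophages, stood at -1.21 and -3.50. The HRF level was 6.38-fold the PBS level for Ch25h, 5.48-fold for Rgs16, 5.37-fold for Has1 and 4.90-fold for Gpr84. Il4i1, an amino acid oxidase of antigen-presenting cells, stood at 3.74 (HRF) and 1.5 (PBS). Adamts4 and Tnfaip6, both of which act on the hyaluronan and proteoglycan matrix, had ratios of 1.96 and 1.68. Marco, a scavenger receptor of macrophages, stood at 5.0 and 3.25, and Chil1, a chitinase-like protein, at 7.11 and 5.81.

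Markers of the cells that these chemokines attract were not high to the same degree. Neutrophil genes had 2 of 28 at least 2-fold higher, beside 1.48% of all compared genes, with 24 ratios above 0 and a median of 0.24. The members past the line were Lcn2 and Clec4e, which other lists hold too. The granule genes S100a8 and S100a9 had ratios of 0.29 and 0.40, Mpo -0.02 and Elane 0.00. The log2 of the list's summed level was 8.91 on the HRF array and 8.33 on the PBS array, and without Lcn2 it was 8.41 (HRF) and 8.21 (PBS). On the WT pair, 10 of 28 were at least 2-fold higher with a median of 0.60, where 2.33% of all compared genes were so and 1.76% were at least 2-fold lower. The smaller ratios here did not go with lower levels. The log2 of the summed level in WT was 8.48 (HRF) and 7.93 (PBS), below both arrays here. The median member stood 0.57 above WT on the PBS array here and 0.25 above WT on the HRF array. Monocyte and interstitial macrophage genes had 1 of 21 higher with a median of 0.15, and eosinophil and basophil genes 1 of 18 with a median of 0.14, that 1 being Il6. In whole lung RNA, fewer cells of a type and less RNA per cell cannot be told apart.

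Most NK and dividing cell genes had ratios below 0, while resident macrophage genes were mixed. The alveolar macrophage list had 13 of 20 ratios above 0 and a median of 0.04, with 2, Marco and Fabp4, at least 2-fold higher and 0 lower. Ear1 and Ear2, ribonuclease genes with near-identical copies, stood at 2.98 and 4.93 on the HRF array against 3.76 and 5.68 on the PBS array. Siglecf, the lectin that marks these cells, stood at 0.65 (HRF) and 1.27 (PBS). NK and cytotoxic genes had 18 of 22 ratios below 0 with a median of -0.27 and 0 past 2-fold. The receptor gene Klre1 had -0.80, Klra8 -0.74, the granzyme gene Gzma -0.53 and the transcription factor gene Eomes -0.46; the Klra genes have near-identical copies. In the cell cycle list, 28 of 32 ratios were below 0 with a median of -0.38. Prc1 (-0.90) and Kif20a (-0.83), both needed for cell division, were the lowest, and Mki67, a marker of dividing cells, stood at 0.73 on the HRF array and 1.39 on the PBS array. None of these 32 was at least 2-fold lower, and 1, Cenpf, was higher, as a bound. B cell genes had 21 of 22 ratios above 0 with a median of 0.28, and platelet genes 17 of 19 with a median of 0.49, none of them past 2-fold. Nrgn, Treml1 and Clec1b, all expressed in platelets, had 0.84, 0.71 and 0.70.

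Fat genes were high together with the inflammatory genes. In the list of white and brown fat, 11 of 34 were at least 2-fold higher and 0 lower, beside 1.48% and 0.46% of all compared genes. Of the 34 ratios, 28 were above 0, with a median of 0.53. Ucp1, the uncoupling protein of brown fat, stood at 0.82 on the HRF array and -1.94 on the PBS array (ratio 2.77). The adipocyte hormone gene Adipoq stood at 3.49 and 2.14, the lipid carrier Fabp4 at 5.47 and 4.27, and the hormone gene Retn at 3.33 and 1.24. Lep, at dim levels, had 1.48. The white and shared fat genes had a median of 0.63 over 25 members. The brown fat genes had a median of -0.12 over 9, with Ucp1 and Cidea (1.11) as the high ones. No member had a processed signal of 0, and Fabp4 is in the alveolar macrophage list too. The log2 of the summed level was 8.75 on the HRF array and 7.99 on the PBS array labelled FceRla KO, 8.01 and 8.82 on the HRF and PBS arrays labelled FcRg KO, and 8.07 and 8.13 in WT. Of the 114 bright genes at least 2-fold higher, 10 belong to this list, and Thrsp, Mrap and Cyp2e1, which fat also expresses, are further members of the 114 with ratios of 1.9, 1.54 and 1.36. Whether fat attached to the lung has a part in these ratios was not tested. The list was written as fat genes, and whether fat adds to the chemokine and cytokine ratios was not tested either.

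Major urinary protein genes, which encode pheromone carriers best known from liver, were the other group outside lung biology. Of 7 compared Mup genes, 6 were at least 2-fold higher on the HRF array (1.48% of all compared genes were), over a range of 0.20 to 3.0. Mup4 stood at -0.43 on the HRF array and -3.03 on the PBS array, and Mup19 at 0.95 and -1.5. Mup3 was at least 8.02-fold higher. These genes are near-identical copies, so the probes may measure the same transcripts and do not count as separate observations. On the other pairs the direction was opposite: 5 of these genes were at least 2-fold lower with HRF on the WT pair, and 5 on the pair labelled FcRg KO. Of all compared genes, 1.76% were so in WT and 1.18% with the FcRg KO label. For Mup4 the HRF level of -0.43 lay close to the -0.49 of the PBS array labelled FcRg KO.

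The 16 lower bright genes were smaller in ratio and had few features in common, with 3 of them in any list. The largest by far was Cyp26b1, the enzyme that degrades retinoic acid, at 1.85 on the HRF array and 4.78 on the PBS array (7.61-fold lower). Its PBS level elsewhere varied widely, 4.69 on the array labelled FcRg KO and 1.31 in WT. Lrat, which stores retinol as ester, stood at 0.72 (HRF) and 1.86 (PBS). Aldh1a3, which makes retinoic acid, had the opposite sign, -1.13 on the HRF array and -2.96 on the PBS array, and the retinoic acid list of 16 had a median of -0.01. Cd101, a surface protein of myeloid and T cells, stood at -2.51 and -1.0. Slc24a2, an ion exchanger, stood at -3.90 and -2.08, and Trub1, which modifies tRNA, at -3.27 and -1.71. The others had log2 ratios between -1.25 and -1.0, among them the hypoxia gene Hif3a (-1.14), the slow myosin gene Myh7 (-1.07), the transcription factor gene Klf10 (-1.02) and the proteases Adamts17 (-1.09) and Adamts9 (-1.0). Against the lowest of the 3 PBS arrays, 1 of the 16 was still at least 2-fold lower and 10 were lower at all.

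Among the 3289 genes that are not bright, 128 passed 2-fold upward and 59 downward, of which 59 and 41 were bounds. Among the highest measured ratios were Saa2 (4.34), Itpripl1 (3.37) and Cd209e (2.95), a C-type lectin gene of dendritic cells. Mc3r, a melanocortin receptor gene, had 2.61 and Gys2, the liver glycogen synthase gene, 2.24. At the low end stood the odorant receptor gene Olfr738 (-2.37), Prok2 (-1.72), a secreted prokineticin, and Dpp10 (-1.59). Among the bounds were Cxcl2, given above, and Lin28b, an RNA-binding protein gene at least 49.1-fold lower (-8.27 on the HRF array, -0.67 on the PBS array). The mast cell protease gene Mcpt1 was at least 13.5-fold lower, while 0 other members of the mast cell list passed 2-fold and the median of the list was 0.01. Odorant receptor genes, best known from the nose, had 15 of 230 at least 2-fold higher and 9 lower, beside 1.48% and 0.46% of all compared genes. Only 18 of the 230 were bright, and among all genes that are not bright 128 of 3289 were higher and 59 lower.

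Set beside the other genotypes, 68 of the 114 higher genes (59.6%) were also at least 2-fold higher on the WT pair, and 77 of the 301 bright genes higher in WT (25.6%) were so here. The WT pair had 301 bright genes (2.29%) higher and 45 (0.343%) lower. On the pair labelled FcRg KO, 31 (0.238%) were higher and 90 (0.691%) lower; 5 of the 114 (4.39%) were also at least 2-fold higher there, and 6 of its 31 (19.4%) were so here. The 3 pairs share no array. Across bright genes the ratios here correlated with those of WT at a Pearson r of 0.53 (13025 genes) and with those of the pair labelled FcRg KO at 0.09 (13022 genes), as a description over genes measured with the same probes on 1 slide. Of the 16 lower genes, 3 (18.8%) were also lower in WT, or 6.67% of the 45 lower there, and 2 (12.5%) were lower on the pair labelled FcRg KO.

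The size of the WT overlap differed by group. Cxcl5 had ratios of 5.93 here, 0.95 on the pair labelled FcRg KO and 6.76 in WT. Il6 had 4.16 here, -0.28 with the FcRg KO label and 4.80 in WT, and Ccl2 had 3.39, -0.06 and 4.35 in the same order. Cxcl3 had 5.70 here, 0.20 with the FcRg KO label and 3.13 in WT. The PBS arrays under these ratios differed: over the 7 CXC ligands, PBS here minus WT PBS had a median of -1.82. Genes with a much lower ratio here than in WT included Ccl24 (1.21, against 3.77 with the FcRg KO label and 5.08 in WT), Arg1, an enzyme gene of alternatively activated macrophages (-0.67, against 3.14 and 2.20), and Cyp1a1, a target of the aryl hydrocarbon receptor (-0.67 here, 3.29 in WT). Cxcr2 (-0.39 here, 2.29 in WT) and Ackr1 (1.09 here, 3.97 in WT) went the same way. The PBS arrays differed for the neutrophil chemokine receptors. Summed over Cxcr1 and Cxcr2, the log2 level was -0.76 (HRF) and -0.46 (PBS) here, and 0.39 and -1.72 in WT. Clca1 had -0.41 here, 1.89 with the FcRg KO label and 2.17 in WT, and Muc5ac -0.30, 1.49 and 1.58. The list of alternatively activated macrophage genes had 1 of 15 at least 2-fold higher here (median 0.07), 6 of 15 with the FcRg KO label (0.31) and 7 of 15 in WT (0.85). Over all compared genes, the shares at least 2-fold higher were 1.48% here, 0.765% with the FcRg KO label and 2.33% in WT.

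**Figure D4:**
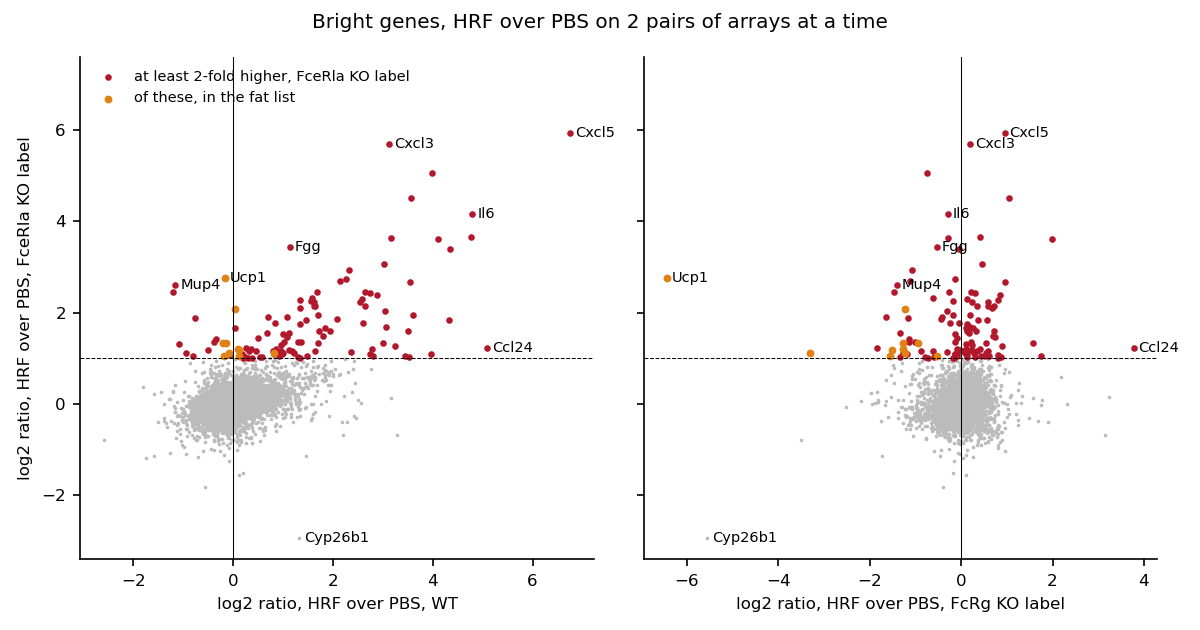
Bright genes, with the log2 ratio of HRF over PBS on the arrays labelled FceRla KO on the y axis and that of the WT pair (left panel) or the pair labelled FcRg KO (right panel) on the x axis. Red points are the 114 genes at least 2-fold higher here and orange those of them in the fat list; the red points mostly lie right of 0 against WT (99 of 114) and on both sides of 0 against the FcRg KO label (58 of 114 right of it).

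Some lists had opposite medians on another pair. Fat genes had a median of 0.53 here, -0.92 on the pair labelled FcRg KO, where 15 of 35 were at least 2-fold lower (1.18% of all compared genes were, and 0.765% higher), and -0.14 in WT. Cell cycle genes had -0.38 here, 0.54 with the FcRg KO label and -0.02 in WT. Platelet genes had 0.49 here, 0.19 with the FcRg KO label and -0.34 in WT, and NK genes -0.27 here, 0.18 with the FcRg KO label and 0.20 in WT. The plot of list members by pair gives the ratio of each gene.

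**Figure D5:**
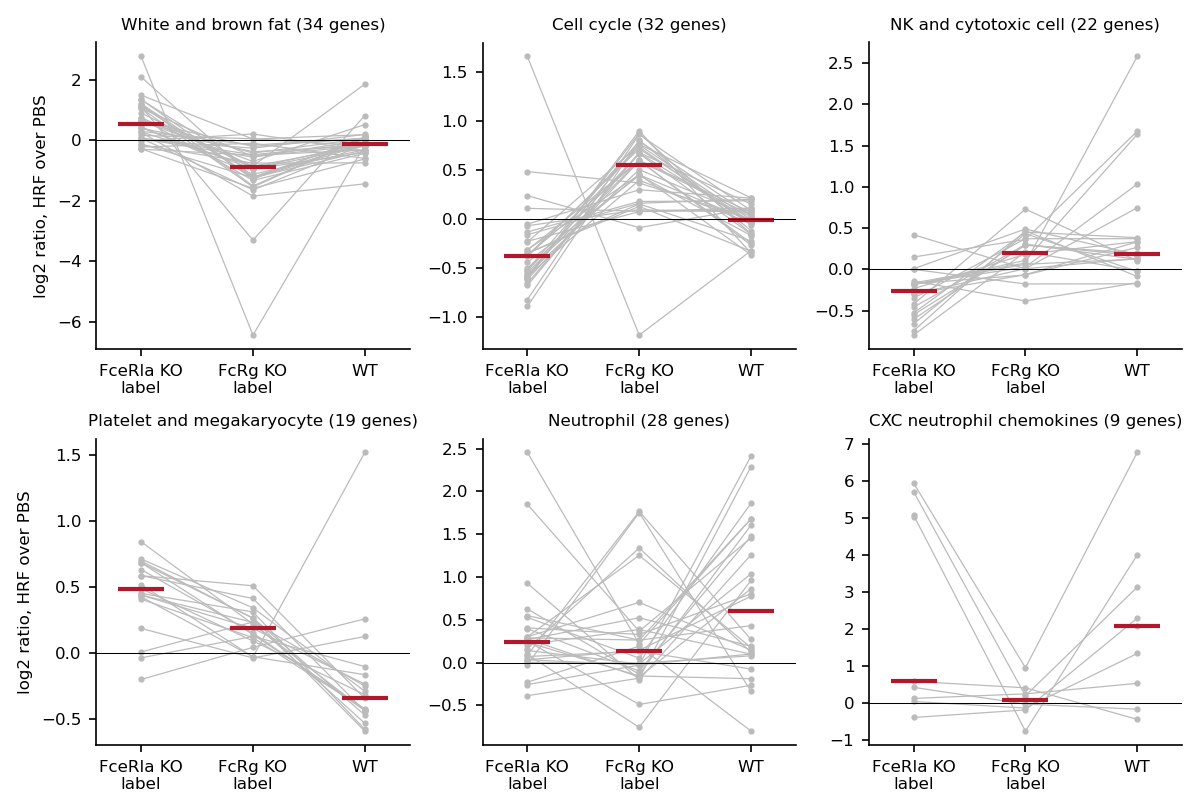
Members of 6 lists, with 1 line per gene across the pairs labelled FceRla KO, FcRg KO and WT, the log2 ratio of HRF over PBS on the y axis and a red bar at each median. In the cell cycle panel the medians run from -0.38 through 0.54 to -0.02, and in the panel of CXC neutrophil chemokines from 0.59 through 0.08 to 2.07.

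The difference between the response here and the shared response of the other pairs was the only quantity with a residual, 1 degree of freedom, in a limma fit over 17605 genes. With Benjamini-Hochberg adjustment at 0.05, 0 genes passed. At an unadjusted p under 0.05 there were 608 (3.45%), and the lowest adjusted p of this limma fit was 0.614. With the arrays scaled on their medians instead, the limma fit passed 126 genes, 79 with a higher and 47 with a lower response here. The residual of this fit is the gap between the WT response and that of the arrays labelled FcRg KO, so the variation among mice does not enter these p-values, and no difference between genotypes listed above passed that test with scaling on the 75th percentile.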

How the data were processed

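Whole lung RNA was measured on 6 single-colour arrays, 1 per group, on 1 slide. Per the file headers, spots were quantified with Agilent Feature Extraction 10.7.3.1 on a design with mm9 annotation. Its processed signal, the deposited intensity used here, was background-subtracted and detrended within each array and not scaled between arrays, per the file headers. The deposited value table holds log2 values whose centring and scale are not given in the sources used here; its differences between the HRF and PBS columns followed those of the scanner files (r 0.997, slope 0.999), and its column medians were 0 on both arrays of the pair, 0 on the other arrays except 0.1 for WT PBS. The exact centring value per probe is unknown.

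Here, control and outlier spots were left out (179 outlier spots on the HRF and 186 on the PBS array of the pair), spots of a probe were averaged, and log2 processed signal minus that of the array's 75th percentile was the level. RefSeq accessions were present for 32335 of 55681 probes; the RefSeq table of GRCm38.p6 named 26056 of them, for 19752 genes. Where a gene had more than 1 probe (5270 genes), the one brightest on average over the 6 arrays stood for it. A ratio with 1 array not well above background is a bound, written "at least": the dim side was set to its own signal or, if higher, to the dimmest signal that passed the detection mark on that array. Genes at least 2-fold apart were counted. With 1 array per group there is no test within the pair, and precision is limited by this number. The difference of response was fitted with limma 3.58.1 in R 4.3.3 (lmFit, eBayes, genotype and challenge, Benjamini-Hochberg 0.05). Counting and the fit were tested on simulated data. The remaining work was done in Python 3.11.15 (numpy 2.4.6, pandas 2.3.3, statsmodels 0.14.6, matplotlib 3.10.9).

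The members, the 54 gene lists, the thresholds and the rule for named genes were chosen with earlier results of these data known. The rule names list members, up to 60 of the highest bright genes, all lower bright genes, the 10 highest and 10 lowest measured ratios among other genes, up to 8 bounds each way, the 10 highest and 10 lowest differences from each other pair, and the targeted genes. Alternatives were scaling on the median, removal of a loess trend, the deposited value table, normexp (offset 50) followed by quantile normalization, a stricter and no filter on dim probes, and the mean over probes.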

Additional observations from a re-analysis of the deposited data

Results flagged for a closer look

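Some bright genes were at least 2-fold apart here and at least 2-fold the other way on another pair. With 1 array per group none of these differences was tested gene by gene, and the limma fit of the difference of response passed 0 genes (608 at an unadjusted p under 0.05).

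Against WT there were 3 such genes that were higher here, Mup4 (log2 ratio 2.60 here, -1.15 in WT), Mup19 (2.45 here, -1.21 in WT) and the adrenergic receptor gene Adra2b (1.30 here, -1.09 in WT). The 2 that were lower here were Cyp26b1 (-2.93 here, 1.32 in WT) and Lrat (-1.14 here, 1.47 in WT). Against the pair labelled FcRg KO there were 22, all higher here. Those farthest apart were Ucp1 (2.77 here, -6.44 there), Cidea (1.105 here, -3.30 there), Cxcl9 (2.94 here, -1.08 there), Mup4 (2.60 here, -1.41 there), Mup19 (2.45 here, -1.47 there), Orm2 (2.70 here, -1.13 there), Thrsp (1.9 here, -1.64 there) and Retn (2.09 here, -1.22 there). The Mup probes may share transcripts.

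Lists with medians at least 0.3 from 0 in opposite directions were white and brown fat (0.53 here, -0.92 with the FcRg KO label), cell cycle (-0.38 here, 0.54 with the FcRg KO label) and platelet and megakaryocyte (0.49 here, -0.34 in WT). These differences were not tested.

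Probes with no gene name here were outside the comparisons. Of 7301 bright ones, 72 (0.986%) were at least 2-fold higher on the HRF array and 37 (0.507%) lower. Between PBS arrays, the shares of such probes at least 2-fold higher were 0.58% (label FceRla KO against WT), 0.878% (label FceRla KO against label FcRg KO) and 0.241% (label FcRg KO against WT), and those at least 2-fold lower 0.606%, 0.384% and 1.3% in the same order.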

How the results depend on the processing

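No paired analysis was possible because each group is a single array and the labels carry no replicate numbers shared across groups, and leaving out an array would leave no comparison. The count of bright genes at least 2-fold higher (114) was between 93 and 125 under the 7 alternatives of scaling, background, values, filter and probe choice. All 13026 bright genes were well above background on both arrays. The stricter filter and no filter therefore could not change this count and left it at 114. Of these 114 genes, 15 had another probe with a ratio. On the other probes, 6 of the 15 were at least 2-fold higher and 13 had the same sign. Of the 16 lower bright genes, 3 had another probe with a ratio. On those probes, 1 was at least 2-fold lower and 3 had the same sign. The lower bright genes (16) numbered 9 with normexp followed by quantile normalization (called normexp from here), and over all compared genes normexp gave 118 higher and 17 lower, with 87.4% of these calls higher against 76.3% in the report. The deposited value table gave 155 lower genes in all, the stricter filter 34, and no filter 587 higher and 306 lower (65.7% higher). Set against the highest or lowest of the 3 PBS arrays, an alternative added after seeing the data, the counts were 53 higher and 1 lower among bright genes and 98 and 6 among all, with 98.2% and 94.2% of calls higher, against 87.7% among bright genes in the report. The difference of response passed 0 genes, 0 with normexp (375 at an unadjusted p under 0.05, lowest adjusted p by limma 0.251), 0 with no filter (750 unadjusted, lowest 0.996) and 126 with median scaling (lowest 7.19e-05); limma's prior degrees of freedom were 1.91 and, with median scaling, 9.90. Of 110 named genes at least 2-fold apart, all kept their sign under the 4 alternatives tried on single genes; 85 stayed at least 2-fold with normexp, 105 with the loess trend removed, 108 with median scaling and 109 with the value table. Over the 54 lists, 363 of 378 medians kept their sign, and all 84 of the 12 lists at 0.3 or more from 0 did. Signal over background limits the dim genes: repeated spots of 55 dim probes had a median SD of 0.245 in the ratio, against 0.0888 for bright ones.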
